A study of Mus musculus with 2 samples.

Results

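The genes described here are 42 genes of the distal nephron and collecting duct, the stretch of the kidney tubule from the thick ascending limb to the collecting duct, as measured in RNA of regulatory T cells (Tregs) sorted from injured mouse kidney. They were chosen by name, as genes known for the thick ascending limb (8 genes), the distal convoluted and connecting tubule (14), the principal cell (11) and the intercalated cell (9). A gene was found on the array through the RefSeq accession of its probes, and 41 of the 42 were found, among 22911 named genes in all. Klhl3, a ubiquitin ligase adaptor that controls WNK kinases, had no probe with such an accession. The 41 genes had 56 probes.

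Both arrays hold RNA of CD45+CD3e+CD4+ T cells that carried the FoxP3-hCD2 reporter, which puts human CD2 on cells that express Foxp3, sorted from mouse kidney on day 28 after cGN induction, an injury set off with antibody against the glomerular basement membrane (anti-GBM). Array 1 is recorded under antibody lot I and array 2 under lot M, and the labels state that severity depended on the lot. The lots share every other label, so 1 array stands for each lot. The deposited value table gives the opposite assignment: over 13919 probes the signal of array 1 was proportional to its lot M column (SD of the log2 ratio 0.00019) and not to its lot I column (SD 0.156). The arrays are therefore named by number. A level is log2 of the signal over the 75th percentile of its array, and a difference is the level on array 2 less that on array 1, so that a positive value is higher on array 2. Folds are taken from these differences, and signals are given before scaling. No test was possible with 1 array per lot: the differences describe this pair of arrays, and lot, array and the mice behind it cannot be told apart. The labels give neither strain, age, sex nor the number of mice behind an array, and kidney Tregs without injury were not analysed here. Markers of the labelled cell type were present: 11 of 12 Treg and T cell genes were measured, Foxp3 at 4.92 on array 1 and 4.74 on array 2, and Trac had no named probe.

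The thick ascending limb takes up salt without water and secretes uromodulin. The distal convoluted and connecting tubule adjusts salt, calcium and magnesium through the thiazide-sensitive cotransporter and its WNK kinases. In the collecting duct, principal cells take up sodium through the epithelial sodium channel and water through aquaporins under vasopressin, and intercalated cells move acid and base with a proton pump and anion exchangers. These tubule cells do not carry CD45 or CD3e, the surface proteins the sort selected for.

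The RNA held transcripts of all 4 groups of distal tubule genes. Of the 41 genes with a probe, 36 were well above background on both arrays, the scanner software's own flag, against 60.0% of all named genes. One, Hsd11b2, passed on array 2 alone, and 4 passed on neither array: Trpm6, Trpv5, Scnn1b and Elf5. All 8 thick ascending limb genes and all 9 intercalated cell genes were measured on both arrays, as were 11 of 14 genes of the distal convoluted and connecting tubule and 8 of 11 principal cell genes. Of the markers that define each group, 3 of 3 were measured for the thick ascending limb (Umod, Slc12a1, Casr) and 4 of 4 for the intercalated cell (Atp6v1g3, Atp6v1b1, Slc26a4, Foxi1). For the distal convoluted and connecting tubule 3 of 4 were measured, without the calcium channel gene Trpv5, and for the principal cell 3 of 4, without Scnn1b.

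Most of these genes were higher on array 2. Of the 36 measured on both arrays, 33 were higher on array 2 by any amount, against 53.8% of all 13743 genes measured on both. The median difference was 0.44 (1.36-fold), against 0.01 over all genes. A 2-fold difference was reached by 5 genes in favour of array 2, Aqp2, Pvalb, Emx1, Avpr2 and Fxyd4, where 1.34% of all genes reached it, and by Slc14a2 in favour of array 1, where 0.0873% did. Whether the RNA of these genes came from tubular cells in the sample was not tested. In bulk RNA, more tubular cells and more tubular RNA per cell cannot be told apart.

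The error given with a difference is the spot error, taken from the scanner software's error model for the spots behind it. It holds no variation between mice, lots, labelling or hybridisation. Its median was 0.21 over the 36 genes, while the central 95% of all genes lay between -0.40 and 0.82. By more than 2 spot errors, 21 of the 36 genes were higher on array 2, against 7.90% of all genes, and Slc14a2 was higher on array 1, against 2.29%. The other 14 lay within 2 spot errors. The spot error was nearly constant for bright genes, 0.204 for both Umod and Fxyd2. There, 2 spot errors act as a fixed limit on the difference. Errors of several probes of a gene were combined as if independent. The sign of the smallest differences depended on the scaling. Scaled by the spike-in controls, whose median difference was 0.06, 32 of the 36 remained higher on array 2, without Wnk1, while the share of all genes dropped to 36.7%.

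**Figure D1:**
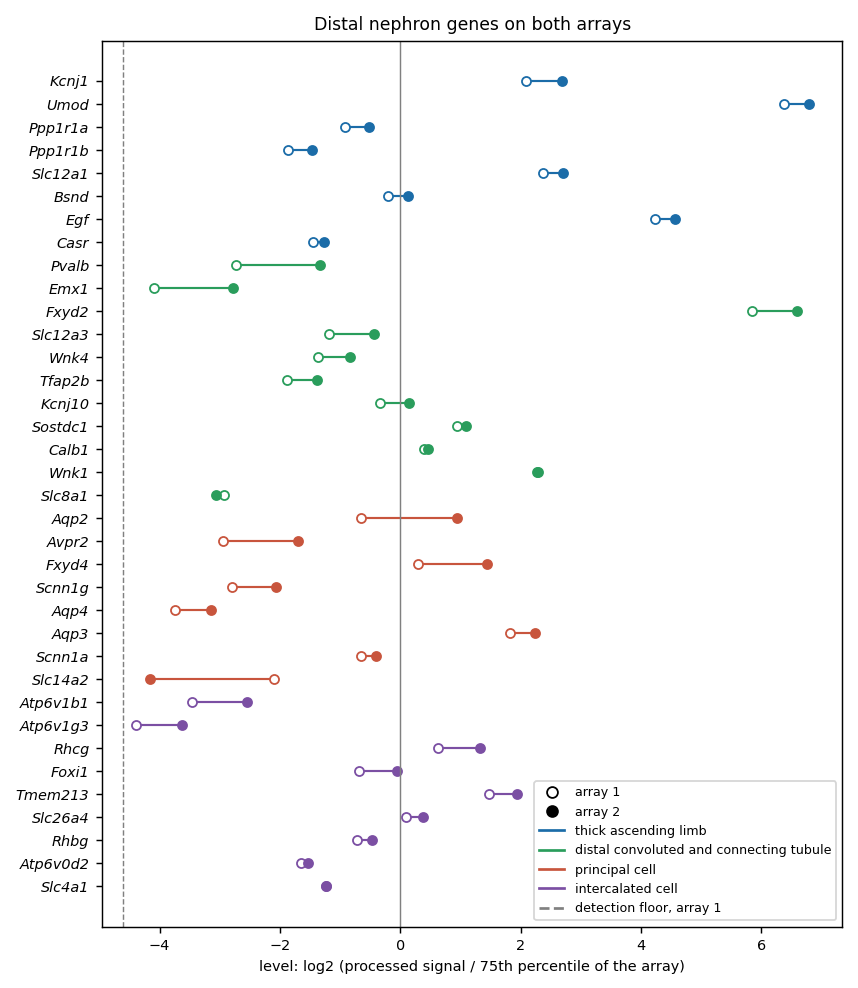
Level of each distal nephron gene measured on both arrays, as log2 of the processed signal over the 75th percentile of the array (x axis), with array 1 as an open and array 2 as a filled circle, 1 array each. The filled circle lies to the right of the open one in 33 of 36 genes; levels of different genes come from different probes and are not comparable with each other.

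Thick ascending limb genes were higher on array 2 in all 8 cases, in a narrow range from 0.18 to 0.59, with a median of 0.37 (1.29-fold). None reached 2-fold, and 3 differed by more than 2 spot errors. Umod, which encodes the uromodulin secreted by this segment, had a processed signal of 23637 on array 1 and 30898 on array 2, a difference of 0.42 ± 0.20. Slc12a1, the salt cotransporter NKCC2 that furosemide blocks, stood at 2.37 on array 1 and at 2.71 on array 2 (0.34 ± 0.20). Kcnj1, the apical potassium channel ROMK, had the largest difference of the segment, with levels of 2.09 on array 1 and 2.68 on array 2 (0.59 ± 0.20). Casr, the calcium-sensing receptor, had the smallest, with -1.45 and -1.27 (0.18 ± 0.21), within 1 spot error. Between these lay Egf, the precursor of epidermal growth factor (0.33), Bsnd, the chloride channel subunit barttin (0.33), and the protein phosphatase inhibitor genes Ppp1r1a (0.40) and Ppp1r1b (0.39).

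Genes of the distal convoluted and connecting tubule spread more widely, from -0.13 to 1.41, with a median of 0.49 (1.40-fold). Of 11 measured genes, 10 were higher on array 2, 7 of them by more than 2 spot errors and 2 by 2-fold or more. Pvalb, the calcium-binding protein parvalbumin of the early distal convoluted tubule, had a signal of 42.9 on array 1 and 111 on array 2, a difference of 1.41 ± 0.22 (2.65-fold). Emx1, a homeobox transcription factor, had a signal of 16.7 on array 1 and 40.8 on array 2 (1.32 ± 0.32, 2.49-fold). Emx1 was dim on array 1, where its probe lay 0.52 above the detection floor, the lowest level among probes well above background on that array. The Pvalb probe lay 1.88 above that floor. Fxyd2, the gamma subunit of the sodium pump, was bright on both arrays, with a signal of 16328 on array 1 and 26963 on array 2 (0.75 ± 0.20).

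The genes around the thiazide-sensitive cotransporter differed by unequal amounts. Slc12a3, the cotransporter NCC itself, stood at -1.19 on array 1 and at -0.44 on array 2 (0.75 ± 0.21). Wnk4, a kinase that regulates it, differed by 0.54 ± 0.15, and its 2 probes gave 0.55 and 0.53. Wnk1, a kinase expressed in many tissues, differed by 0.0085 ± 0.12 over 3 probes, at levels of 2.27 on array 1 and 2.28 on array 2. The basolateral potassium channel gene Kcnj10 differed by 0.48 and the transcription factor gene Tfap2b by 0.49, on 1 of its 2 probes. Of the calcium and magnesium genes, Calb1 (calbindin-D28k, 0.066) and the sodium-calcium exchanger gene Slc8a1 (-0.13) were within 1 spot error, and the channel genes Trpv5 and Trpm6 passed on neither array. Sostdc1, a secreted inhibitor of BMP signalling, differed by 0.16 ± 0.20.

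Principal cell genes held the largest differences in both directions, from -2.07 to 1.60, with a median of 0.66 (1.58-fold) over 8 measured genes. Of these, 7 were higher on array 2, among them 6 by more than 2 spot errors and 3 by at least 2-fold. Aqp2, the water channel that vasopressin moves to the apical membrane, had a signal of 181 on array 1 and 536 on array 2, a difference of 1.60 ± 0.21 (3.03-fold). Among the 7793 genes whose mean level reached the 75th percentile of the array, Aqp2 ranked 1 by its difference, and it ranked 19 among all 13743. Avpr2, the vasopressin receptor of this cell, had a signal of 37.3 on array 1 and 86.2 on array 2 (1.24 ± 0.23, 2.36-fold). Fxyd4, a sodium pump regulator of the collecting duct also called CHIF, had 352 and 761 (1.14 ± 0.20, 2.21-fold). Each of the 3 rests on 1 probe, and that of Avpr2 was dim, 1.68 above the floor on array 1.

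The other water and sodium channel genes of the principal cell differed less. Aqp3 and Aqp4, the basolateral water channels, differed by 0.41 ± 0.20 and 0.59 ± 0.28, and Aqp4 was dim, 0.88 above the floor on array 1. Of the 3 subunits of the epithelial sodium channel, Scnn1g stood at -2.79 on array 1 and at -2.06 on array 2 (0.73 ± 0.24). Scnn1a differed by 0.25 ± 0.15, and Scnn1b, the third subunit, passed on neither array. Hsd11b2, the enzyme that shields the mineralocorticoid receptor from glucocorticoids, had a signal of 11.7 on array 1, not well above background, and 27.3 on array 2. The ratio of these signals after scaling was 2.38-fold (1.25 ± 0.40). Elf5, a transcription factor of principal cells, passed on neither array. Slc14a2, the urea transporter UT-A of the inner medulla, ran the other way, with a signal of 66.7 on array 1 and 15.6 on array 2, a difference of -2.07 ± 0.33 (4.19-fold higher on array 1), and was the second lowest difference of all genes measured. That value rests on 1 of its 4 probes. The others passed on neither array, and with all 4 probes averaged the difference was -0.82.

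The 2-fold differences of the dimmer genes were smaller with normexp background correction. It starts from the median signal of each spot and its background, and adds an offset of 50 to each signal. The offset by itself shrinks the differences of dim genes, so its part and that of the background estimate were not separated. With normexp, Aqp2 kept a difference of 1.34. Pvalb came to 0.74, Avpr2 to 0.63, Emx1 to 0.51, Fxyd4 to 0.92 and Slc14a2 to -0.63. The count of all genes at 2-fold in favour of array 2 went from 184 to 28 under the same correction. Aqp2 kept rank 1 among the genes above the 75th percentile under all 11 alternatives of correction, scaling, filter and probe choice for which ranks were computed. Many of these could hardly change it. Scaling by the median of genes, by spike-ins or not at all shifts every gene equally and cannot alter a rank. The filters and probe choices left the value of Aqp2 itself unchanged, and the genes ranked were those of the main setting.

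**Figure D2:**
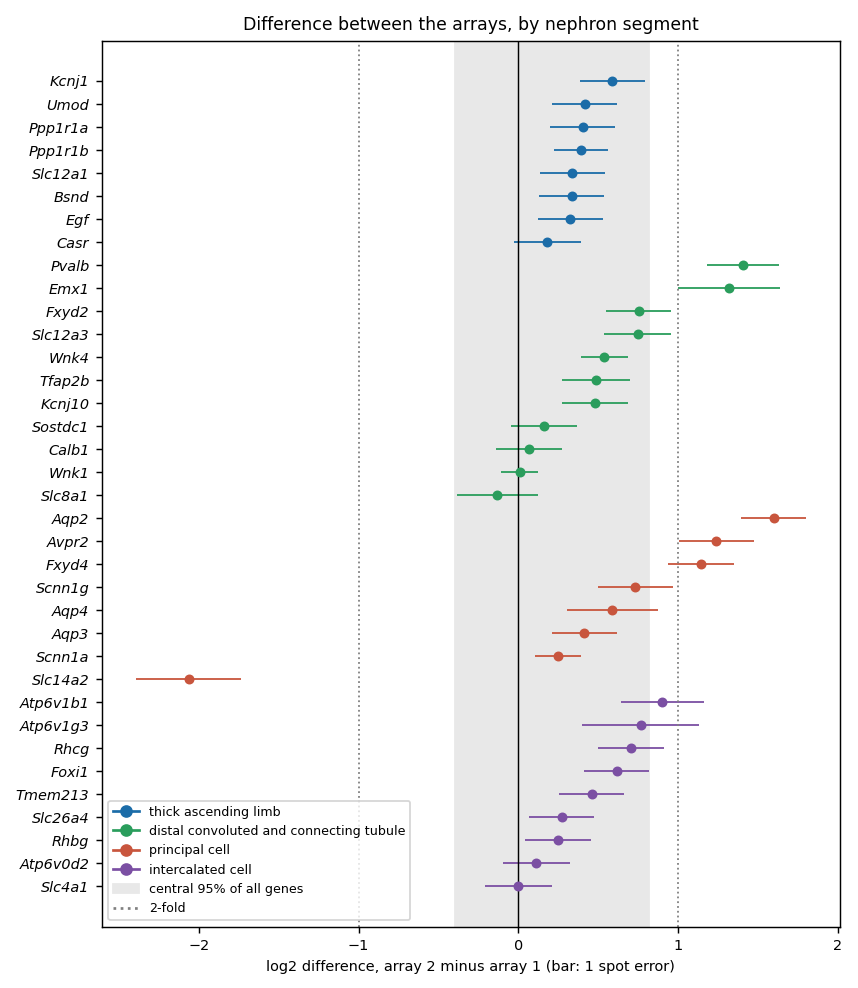
Difference of each gene, array 2 minus array 1 on the log2 scale (x axis), with a bar of 1 spot error on each side, grouped by segment; the grey band holds the central 95% of all 13743 genes, from -0.40 to 0.82, and dotted lines mark 2-fold. Thick ascending limb genes cluster between 0.18 and 0.59, whereas principal cell genes run from -2.07 (Slc14a2) to 1.60 (Aqp2).

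The promoters of the 5 genes that were 2-fold higher on array 2, and of Atp6v1b1, the intercalated cell gene with the largest difference, are shown as the stretch of 250 bases before the start of the gene, 5′ to 3′ on the strand of the gene (RefSeq, build GRCm38.p6; the array design names another build, and no array coordinates were used). Capitals mark matches, on either strand, to 5 motifs searched: TATAAA (a basal promoter element), TGACGTCA (cAMP response element), TGTTTAC (forkhead factors, the family of Foxi1), GCCNNNGGC (AP-2 factors, the family of Tfap2b) and GTTAAT (HNF1).
Aqp2, chr15:99578806-99579055, plus strand: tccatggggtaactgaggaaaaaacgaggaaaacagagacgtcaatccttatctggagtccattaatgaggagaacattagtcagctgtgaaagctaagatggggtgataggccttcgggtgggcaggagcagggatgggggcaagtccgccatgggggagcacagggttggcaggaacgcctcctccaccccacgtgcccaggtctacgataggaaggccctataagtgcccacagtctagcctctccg
Avpr2, chrX:73891852-73892101, plus strand: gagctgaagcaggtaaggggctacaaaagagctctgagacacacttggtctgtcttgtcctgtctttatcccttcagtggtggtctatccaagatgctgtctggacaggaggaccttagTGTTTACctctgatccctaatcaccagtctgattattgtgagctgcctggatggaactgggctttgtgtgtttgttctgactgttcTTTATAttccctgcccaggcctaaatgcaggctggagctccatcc
Fxyd4, chr6:117937336-117937585, minus strand: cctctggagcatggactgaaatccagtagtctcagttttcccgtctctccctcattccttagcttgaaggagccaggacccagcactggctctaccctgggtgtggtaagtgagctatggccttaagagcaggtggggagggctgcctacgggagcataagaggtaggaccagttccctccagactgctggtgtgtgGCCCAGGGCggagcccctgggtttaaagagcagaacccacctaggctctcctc
Pvalb, chr15:78206401-78206650, minus strand: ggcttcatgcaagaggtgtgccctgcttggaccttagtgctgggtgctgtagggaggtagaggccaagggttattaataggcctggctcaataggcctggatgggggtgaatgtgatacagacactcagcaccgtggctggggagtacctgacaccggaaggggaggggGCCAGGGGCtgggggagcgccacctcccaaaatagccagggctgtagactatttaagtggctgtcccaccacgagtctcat
Emx1, chr6:85187681-85187930, plus strand: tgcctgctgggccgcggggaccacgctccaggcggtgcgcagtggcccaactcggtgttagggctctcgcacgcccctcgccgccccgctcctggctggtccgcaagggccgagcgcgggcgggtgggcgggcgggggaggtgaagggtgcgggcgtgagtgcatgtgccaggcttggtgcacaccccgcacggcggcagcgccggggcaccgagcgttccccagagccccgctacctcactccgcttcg
Atp6v1b1, chr6:83742767-83743016, plus strand: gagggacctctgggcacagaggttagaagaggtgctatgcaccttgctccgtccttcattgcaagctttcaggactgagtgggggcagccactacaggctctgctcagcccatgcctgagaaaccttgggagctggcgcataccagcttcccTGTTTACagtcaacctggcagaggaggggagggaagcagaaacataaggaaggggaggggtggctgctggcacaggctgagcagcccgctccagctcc

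Pvalb has another start in the same table, and the more upstream of the 2 is shown. In these windows the Avpr2 promoter held TGTTTAC and, nearer the start, TTTATA, the reverse complement of TATAAA. The Atp6v1b1 promoter held TGTTTAC at positions -98 to -92 from the start, the Fxyd4 promoter GCCCAGGGC and the Pvalb promoter GCCAGGGGC. The Aqp2 and Emx1 windows held none of the 5 motifs in these exact letters. Of the 42 genes, 29 had a promoter in the table, 32 promoters in all. TGTTTAC was present in 4 of the 32 (Atp6v1b1, Avpr2, Egf, Slc12a1), against 3.17% of all 32851 promoters of the table. GCCNNNGGC was present in 9 of the 32, against 13.7% of all, TATAAA in 5 against 12.4%, GTTAAT in 3 (Atp6v1g3, Tfap2b, Umod) against 6.43%, and TGACGTCA in 0 against 1.55%. No match overlapped a match to another motif. A match is a run of letters and was not tested for binding.

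Intercalated cell genes were all measured on both arrays, and 8 of 9 were higher on array 2, from -0.00037 for Slc4a1 to 0.90, with a median of 0.46 (1.38-fold). That median was 0.23 with normexp correction and 0.27 when only probes at 4 times the floor were kept. None reached 2-fold, and 5 differed by more than 2 spot errors. Atp6v1b1, a subunit of the proton pump found in intercalated cells, had a signal of 26.0 on array 1 and 47.6 on array 2 (0.90 ± 0.26), which came to 0.37 with normexp correction. Atp6v1g3, another subunit of the pump, had 13.5 and 22.6 (0.77 ± 0.37) and lay 0.22 above the floor on array 1. Both pump subunits were thus dim, so that their differences carry larger errors than those of the brighter genes. Atp6v0d2, a pump subunit that macrophages and osteoclasts also express, differed by 0.11 ± 0.21.

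Of the transporters, the ammonia channel genes Rhcg and Rhbg differed by 0.71 ± 0.20 and 0.25 ± 0.21. Slc26a4, the chloride-bicarbonate exchanger pendrin of base-secreting cells, stood at 0.10 on array 1 and at 0.37 on array 2 (0.27 ± 0.20). Slc4a1, the exchanger AE1 of acid-secreting cells and also the band 3 protein of red cells, had -1.23 on both arrays. Of the other red cell genes, the alpha-globin genes Hba-a1 and Hba-a2, near-identical copies whose probes may share transcripts, were higher on array 2 (0.52 and 0.50). The beta-globin gene Hbb-bt was higher on array 1 (-0.45), and Ermap differed by -0.08. The summed level of the 5 measured genes of that list was 4.64 on array 1 and 5.69 on array 2. The red cell genes Alas2 and Epb42 passed on neither array. The part of red cell RNA in the Slc4a1 signal was not tested. Foxi1, the forkhead factor that intercalated cells need, had -0.68 and -0.06 (0.62 ± 0.21), and Tmem213, a membrane protein gene, differed by 0.46 ± 0.20.

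The medians of the 4 groups ran from 0.37 for the thick ascending limb over 0.46 for the intercalated cell and 0.49 for the distal convoluted and connecting tubule to 0.66 for the principal cell. Their ranges overlapped, and no order of the groups was tested. The median of the principal cell was 0.42 with normexp correction and 0.92 with no filter on dim probes. It was 0.94 without genes assigned here to several segments or other tissues.

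Genes assigned here to 1 of these segments were set against those assigned to several segments or other tissues. The assignment was made with earlier results of these data known, and the split was not tested. The 23 measured genes of 1 segment, among them all 5 at 2-fold in favour of array 2, were all higher there. Their median was 0.59, and 16 of them differed by more than 2 spot errors. The 13 measured genes of the other class had a median of 0.33, with 10 higher on array 2. The 3 not higher were Slc14a2, Slc4a1 and Slc8a1. Of the 13, the 5 known from blood cells (Wnk1, Aqp3, Slc4a1, Slc8a1 and Atp6v0d2) had a median of 0.0085, and 3 of the 5 were higher on array 2. Their summed level was 14.5 on array 1 and 15.6 on array 2. Without these 5 genes the median of the rest was 0.49.

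Distal genes were higher on array 2 in the dim and in the bright range. The 22 distal genes whose mean level lay below the 75th percentile had a median difference of 0.49, with 19 higher on array 2. Of these 22, 3 were at 2-fold in favour of array 2 and 1, Slc14a2, in favour of array 1. The 14 genes at or above that percentile had a median of 0.42, with all 14 higher and 2 at 2-fold. Among the 14, Wnk1 stood at 0.0085, with a sign that depended on the scaling. Over all genes, the medians in these ranges were 0.03 and 0.0085. By any amount, 3248 of 5950 and 4142 of 7793 genes were higher on array 2, and 2.50% and 0.449% reached 2-fold in its favour. The spread of all genes was narrower in the bright range, where the central 95% lay between -0.24 and 0.45.

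Several members had more than 1 probe, and not all of them gave the same difference. Ppp1r1b had 0.80 on its brighter probe and -0.01 on its dimmer one, and Scnn1a had 0.49 and 0.01, so the value of each depends on the probe. The 3 probes of Wnk1 gave -0.18, -0.0072 and 0.22 and thus differed in sign, each by less than 2 spot errors. Aqp4 and Atp6v0d2 each had a further probe that was well above background on array 2 alone, at a signal of 17.0 and 16.2, close to the floor of 11.7. Slc8a1, Tfap2b, Calb1 and Casr had further probes that passed on neither array, and with such probes averaged in, Slc8a1 turned to 0.36 and Tfap2b to -0.19.

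**Figure D3:**
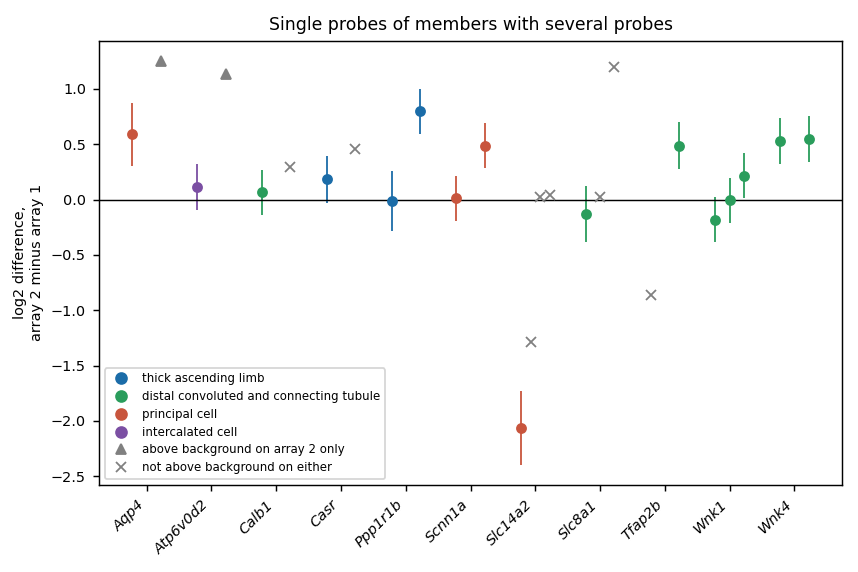
Difference of each probe, array 2 minus array 1 on the log2 scale (y axis), for the 11 genes with more than 1 probe (x axis); coloured circles with a bar of 1 spot error were well above background on both arrays, grey triangles on array 2 only, and grey crosses on neither. The 2 probes of Wnk4 lie together, whereas those of Ppp1r1b and Scnn1a lie apart.

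Other genes listed here for the same segments, 51 that are not among the 42, were mostly higher on array 2 as well. Of these, 49 were measured on both arrays, 41 were higher on array 2 and 8 on array 1, with a median of 0.34, and 19 differed by more than 2 spot errors, all in favour of array 2. One reached 2-fold, Kcne1, a potassium channel subunit (1.13 ± 0.25). Large differences were also found for Kcnj15, a potassium channel of the same family as Kcnj10 (0.90), the transcription factor gene Lhx1 (0.89) and Defb1, a beta-defensin of the tubule (0.74). The part of proximal tubule RNA in the Kcne1 and Kcnj15 signals was not tested. In the WNK pathway, Stk39 and Oxsr1, the kinases that WNK kinases activate, and Cul3, the ligase scaffold that works with Klhl3, differed by -0.06, -0.02 and -0.05, near the value of Wnk1 and below those of Wnk4 and Slc12a3. These 3 genes are expressed in many cell types.

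Genes of the proximal tubule, the neighbouring part of the nephron, had larger differences. All 16 genes of that list were measured, 15 were higher on array 2, and 10 of them at least 2-fold, around a median of 1.15. Their summed level was 87.5 on array 1 and 179 on array 2, a ratio of 2.05. For the 36 distal genes it was 200.1 and 285, a ratio of 1.42. Umod (levels of 6.37 and 6.79) and Fxyd2 (5.84 and 6.59) were the brightest of these genes and weigh most in that sum. Fxyd2 is among the genes assigned here to several segments or other tissues. The part of proximal tubule RNA in its signal was not tested. For the 23 measured genes of 1 segment, Umod among them, the ratio was 1.36. With 1 array per lot the gap between the lists has no test. The 8 measured principal cell genes had a median of 0.66 and a summed ratio of 1.64. Their 3 measured markers alone, Aqp2, Fxyd4 and Scnn1g, which leave out Aqp3, Scnn1a and Slc14a2 among others, had 1.14 and 2.43. The markers Umod, Slc12a1 and Casr of the thick ascending limb had 0.34 and 1.33. The 4 markers of the intercalated cell had 0.69 and 1.36, and they leave out Slc4a1, Rhbg and Atp6v0d2 among others. With normexp correction, Atp6v1g3 came to 0.18, Atp6v1b1 to 0.37, Slc26a4 to 0.19 and Foxi1 to 0.49. The 3 measured markers of the distal convoluted and connecting tubule had 0.75 and 1.32. They leave out Wnk1, Slc8a1 and Sostdc1 among others.

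Markers of other cells were also present in this RNA. All 10 macrophage genes were measured and higher on array 2, with a median of 0.30, and their summed level was 1.27 times as high there. Endothelial genes had a median of 0.03 over 9 of 10 genes (summed level 8.09 and 8.02), with Tie1 measured on neither array. Podocyte genes had a median of 0.04 over 6 of 10 (1.54 and 1.64), with Nphs1, Podxl and Wt1 among those measured on neither array. Of the Treg and T cell genes, 5 of 11 were higher on array 2, around a median of -0.02, and the summed level was 1050 on array 1 and 1041 on array 2. The part that proximal tubule and macrophage RNA have in the signals of distal genes they also express was not tested.

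**Figure D4:**
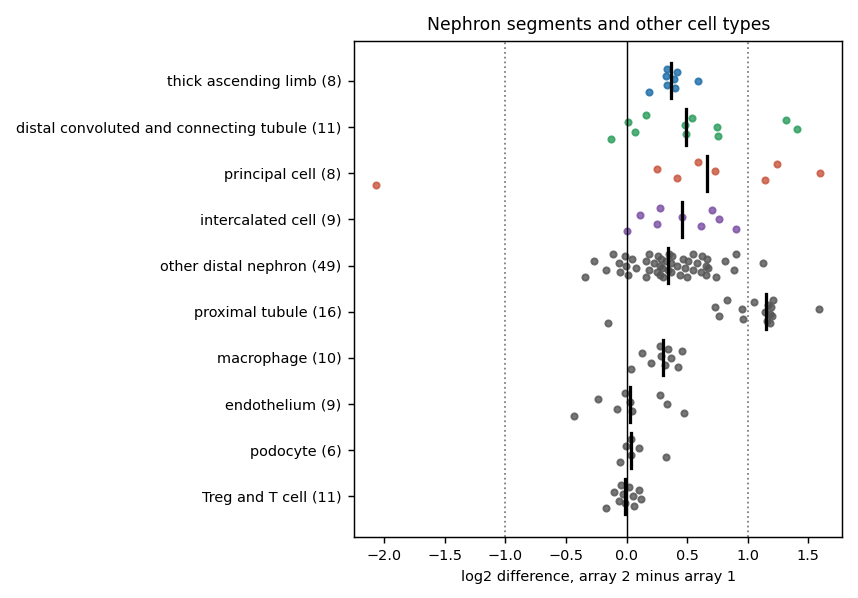
Differences of single genes, array 2 minus array 1 on the log2 scale (x axis), for the 4 distal groups (colours) and for other gene lists (grey), with the number of genes measured in parentheses; the black bar is the median, the vertical offset of points has no meaning, and dotted lines mark 2-fold. The proximal tubule median (1.15) lies to the right of the 4 distal medians (0.37 to 0.66), and the Treg and T cell median lies at -0.02.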

How the data were processed

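Cy3-labelled RNA of sorted kidney Tregs was measured on 2 single-colour Agilent arrays. The spots were read with Agilent Feature Extraction 10.7.1.1, per the file headers. The deposited processed signal intensity is, per the file headers, background-subtracted with a spatial detrend, and carries no scaling between arrays. Other deposited columns, per the file headers, are flags of 0 or 1 for outliers, saturation and detection. The deposited value table holds a linear ratio, the processed signal over a constant per array near the 75th percentile (column medians 0.070 and 0.069). Scale and centring were settled by comparison with the scanner signals, while the assignment of its columns to lots contradicts the scanner files.

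Control spots (3671 of 62976) and outlier spots (75 and 56) were left out, and no spot was saturated. Levels are log2 of the signal minus that of the 75th percentile of the array (signals of 286 and 280). Probes were named through RefSeq accessions (assembly GRCm38.p6, names only): 32994 of 56605 probes (58.3%) received 1 symbol. A gene's value is the mean over those of its probes that passed the background flag on both arrays. A gene measured on 1 array was set against the higher of the dim array's floor (signals of 11.6 and 11.7) and its own signal there. For Hsd11b2 its own signal was the higher, so the value given is a ratio of signals and not a lower bound. Summed levels add the signals of a list's measured genes over the 75th percentile, so bright genes carry most weight. The number of arrays limits the precision. Scan time, scanner, grid and protocol were the same on both arrays. No test was run. The calculation was tested on simulated data (Python 3.11.15, limma 3.58.1 for normexp).

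The members, segment groups, lists and alternatives were chosen with earlier results of these data known. All 42 genes may be named. Full values go to members at 2-fold and to the extremes of each group, and other distal genes are named from the 5 largest differences, of which 1 is not reported here. Stk39, Oxsr1, Cul3 and further members' values were chosen after they were seen. The group given to a gene found in several segments is the one it is best known for here.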

Additional observations from a re-analysis of the deposited data

How the results depend on the processing

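Taking the lot columns of the value table by their labels exchanges the arrays, so that lot M less lot I replaces array 2 less array 1. The median of all members became -0.44, and those of the thick ascending limb, distal convoluted and connecting tubule, principal cell and intercalated cell became -0.37, -0.49, -0.66 and -0.46. Single values became -1.60 for Aqp2, -1.41 for Pvalb, -1.31 for Emx1, -1.24 for Avpr2, -1.15 for Fxyd4, -0.91 for Atp6v1b1, -0.59 for Kcnj1, -0.18 for Casr, 0.14 for Slc8a1 and 2.06 for Slc14a2, with 1 member at 2-fold in favour of lot M and 5 in favour of lot I. Slc4a1, near 0, kept its sign. The columns hold the scanner signals of these arrays, so by array number the direction is as before. Over the other alternatives no group median changed sign, and that of all members ranged from 0.33 to 0.59. With normexp correction the medians of the principal and intercalated cell were 0.42 and 0.23, 1 member was at 2-fold in favour of array 2 and 0 in favour of array 1, and Slc4a1 turned to 0.069. When dim probes were not filtered, the principal cell median was 0.92, 0 members were at 2-fold in favour of array 1, Slc8a1 turned to 0.36 and Tfap2b to -0.19, and 6 of 41 members were not higher on array 2, among them Scnn1b, Trpm6 and Trpv5, which passed on neither array. With a stricter filter (4 times the floor) 27 members were measured, with an intercalated cell median of 0.27, 2 at 2-fold in favour of array 2 and 0 in favour of array 1, since fewer genes qualified. Without genes assigned to several segments or other tissues 23 members were measured. The principal cell median was then 0.94, and 0 members were at 2-fold in favour of array 1. At a 1.5-fold limit 14 members were higher on array 2, and at a 4-fold limit 0 were. Over all genes, the 184 in favour of array 2 and 12 in favour of array 1 became 28 and 0 with normexp correction, 84 and 1 with the stricter filter, 440 and 229 with the positive-and-significant flag of the scanner, and 648 and 399 without a filter. The naming of probes by a gene name column was not run, because the scanner files have no such column. No paired analysis was possible because each lot has 1 array, which also leaves nothing to leave out. Dim probes limit Emx1, Atp6v1g3, Aqp4, Hsd11b2 and, on array 2, Slc14a2, which lie near the floor. Pvalb, Avpr2, Scnn1g and Atp6v1b1 lay below 4 times the floor on array 1, so the stricter filter dropped them too. The 2 members it left at 2-fold in favour of array 2 were Aqp2 and Fxyd4.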
